A study of Mus musculus with 6 samples.

Results

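Mrpl48 and Mrpl48-ps are 2 copies of 1 coding sequence at different places in the mouse genome. Mrpl48 (ENSMUSG00000030706.17, protein coding, 8 coding exons) lies at chr7:100545751-100608301 on the minus strand of GRCm38/mm10, 1084 kb from Gdpd5, the gene targeted in Gde2KO mice. Mrpl48-ps (ENSMUSG00000078480.3, a processed pseudogene) lies at chr4:88599175-88599810, also on the minus strand, and is a single stretch without introns. Assembled transcripts were assigned to either gene by exon overlap on the same strand, which gave 8 transcripts over Mrpl48 and 7 over Mrpl48-ps in the 6 libraries, none of them without a strand. Both genes were among the 12894 genes with enough signal to be compared. They were chosen because their levels had been seen to differ in opposite directions between the genotypes in these same libraries. The differences between genotypes at either gene are therefore given as a description, without a test.

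The 6 libraries were made from poly-A RNA of the lumbar spinal cord, ventral side, of mice aged 5 weeks. Of these, 3 were wild type (WT) and 3 were Gde2KO, all on a C57BL/6 strain background. Gde2KO mice lack GDE2, the product of Gdpd5, a surface enzyme that cuts glycosylphosphatidylinositol anchors and so sheds the proteins they hold. How the Gde2KO allele was made, the strain of the DNA that flanks it and whether the WT animals were littermates are not given in the sources used here. The labels name the libraries of a genotype as separate samples without describing the animals behind them, so that p-values below measure the spread between these libraries.

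Mrpl48 encodes mL48, a protein of the large subunit of the mitochondrial ribosome. That ribosome translates the few proteins encoded by mitochondrial DNA, all of them subunits of the respiratory chain and ATP synthase, and mL48 sits in its central protuberance, the part of the large subunit that faces the small subunit. A processed pseudogene arises when a spliced mRNA is copied back into the genome, so it carries the exons of its parent joined end to end and usually no promoter of its own. A short read from the mRNA of the parent can match such a copy without a gap where the 2 sequences are alike.

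The 636 bases of Mrpl48-ps aligned with the coding sequence of Mrpl48 from start to stop codon without a gap and were 98.1% identical, with 12 differing bases. Of these, 10 were transitions and 2 were transversions, and 5 would change an amino acid. The reading frame of 211 codons had 0 internal stop codons in either copy. Counted from 1 at the first base of the start codon, with the base of Mrpl48 first, the differences were T30C, G75A, G158A, C369T, G375A, G393A, G404A, G408A, A442G, C449G, T567C and G603C. They were spread unevenly, with 7 in coding exon 6, 2 in coding exon 8, 1 each in coding exons 2, 3 and 4, and 0 in coding exons 1, 5 and 7. The longest stretch without a difference ran over 210 bases, from 159 to 368, followed by stretches of 117 and 82 bases. Of the 587 windows of 50 bases, 262 were identical in both copies, as were 129 of the 537 windows of 100 bases.

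The first 3 coding exons are shown because every WT piece of the assembled pseudogene began in the third of them, while Gde2KO pieces reached the first. Capitals mark coding exon 2 and the same bases in the pseudogene. The Mrpl48 sequence is spliced from chr7:100571252-100583010 and the pseudogene sequence is chr4:88599699-88599810, both on the minus strand of GRCm38, from GENCODE vM21 transcripts.
Mrpl48: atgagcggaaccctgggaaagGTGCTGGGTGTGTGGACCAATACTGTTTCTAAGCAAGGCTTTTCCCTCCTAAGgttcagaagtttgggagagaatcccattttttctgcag
Mrpl48-ps: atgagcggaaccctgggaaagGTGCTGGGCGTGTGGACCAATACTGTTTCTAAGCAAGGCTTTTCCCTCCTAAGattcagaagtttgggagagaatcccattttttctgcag

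Bases 361 to 460 are shown because they hold 7 of the 12 differences and so set the copies apart best. Capitals mark those 7 bases. The Mrpl48 sequence is spliced from chr7:100552590-100559755 and the pseudogene sequence is chr4:88599351-88599450, with the same strand and source.
Mrpl48: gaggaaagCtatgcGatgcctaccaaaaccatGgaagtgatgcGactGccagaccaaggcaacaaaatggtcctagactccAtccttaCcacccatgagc
Mrpl48-ps: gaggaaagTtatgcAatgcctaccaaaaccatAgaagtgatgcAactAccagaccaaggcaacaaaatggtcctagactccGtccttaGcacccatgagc

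The libraries were alike in size, with 31899 to 33791 assembled transcripts and a relative depth of 0.910 to 1.137. Gdpd5 stood at 5.38, 6.54 and 5.95 FPKM (fragments per kilobase of transcript, normalised for sequencing depth) in the WT libraries, listed here and below in the order of replicates 1 to 3. The Gde2KO libraries held 1.24, 1.20 and 0.946 FPKM, lower as the labels imply (limma adjusted p = 0.00526). For the sex-linked and marker genes that follow, levels were averaged over all bases assembled in at least 1 library, so that genes listed at 0 could be included. Gde2KO replicate 1 stood apart in holding the Y-linked gene Ddx3y (21.7 FPKM) and having Xist listed at 0, while the other 5 libraries held Xist and had Ddx3y at 0. Gde2KO replicate 3 had the fewest transcripts, and 47.7% of its single-exon transcripts carried a strand, against 51.5% to 53.4% elsewhere. Markers of neurons, motor neurons, oligodendrocytes, astrocytes, microglia, endothelium and lumbar Hox genes were present in every library (Snap25 at 921 to 986 FPKM, Chat at 16.7 to 23.7, Hoxc10 at 35.2 to 56.5). Of the genes checked for other tissues, forebrain Emx1 and muscle Myh4 were at 0 in all 6 libraries, muscle Ckm and Acta1 were at 0 in 5 and 3 of them and reached 0.268 and 0.792 FPKM, and forebrain Neurod6 was at 0.918 to 1.26 in every library. The Schwann cell markers Prx and Pmp2 varied widely. Prx was at 3.34 to 9.84 FPKM among the WT libraries and 1.10 to 9.83 among the Gde2KO libraries, and Pmp2 at 2.59 to 7.94 and 1.403 to 10.004. Both were lowest in Gde2KO replicate 1, and their part in the results below was not tested.

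Mrpl48 mRNA was abundant in every library and lower in each Gde2KO library than in each WT library. Its level, the FPKM averaged over the gene's counted exonic bases after scaling between libraries, was 55.0, 51.5 and 55.4 in the WT libraries. The Gde2KO libraries held 42.5, 44.2 and 42.6. All 3 WT libraries lay above all 3 Gde2KO libraries. The WT mean was 53.9 ± 2.17 FPKM and the Gde2KO mean 43.1 ± 0.937 (SD, n = 3 each), a log2 difference of -0.32 on the scale with 0.1 added to each FPKM. Gde2KO replicate 3 assembled 94.5% of the counted bases, against 99.8% to 100% in the other libraries, and bases not assembled entered as 0. Over bases assembled in all 6 libraries the log2 difference of Mrpl48 was -0.29. In bulk tissue, fewer cells of a type and less RNA per cell cannot be told apart. Of the 12894 genes, 877 had a lower log2 difference.

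The pseudogene ran the other way. The WT libraries held Mrpl48-ps at 6.18, 3.81 and 4.35 FPKM, and the Gde2KO libraries at 18.2, 18.9 and 14.3. Each Gde2KO library held more than each WT library, and the spread within a genotype was wider in relative terms, with a pooled SD of 0.293 on the log2 scale against 0.0469 for Mrpl48. The WT mean was 4.78 ± 1.24 FPKM and the Gde2KO mean 17.1 ± 2.45 (SD, n = 3 each), a log2 difference of 1.84 and a fold of 3.58. A higher log2 difference was found for 107 of the 12894 genes. Counted bases that a library did not assemble entered these levels and the fold as 0. The assembled share of the counted bases was 52.9%, 88.3% and 88.1% in WT and 100%, 100% and 89.2% in Gde2KO. Over bases assembled in all 6 libraries the log2 difference of Mrpl48-ps was 1.52.

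For both genes the groups did not overlap, Mrpl48 lower and Mrpl48-ps higher in Gde2KO, as they did not for 10.9% of all genes compared (5.79% lower and 5.06% higher). Since the pair was chosen on this contrast, nothing is read from this count and no p is given for either. Across all genes 15, or 0.116% of those compared, passed an adjusted p of 0.05 in limma (5 higher, 0.0388%, and 10 lower, 0.0776%). Without Gde2KO replicate 1 the log2 difference was -0.31 for Mrpl48 and 1.79 for Mrpl48-ps, and without Gde2KO replicate 3 it was -0.31 and 1.96.

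**Figure D1:**
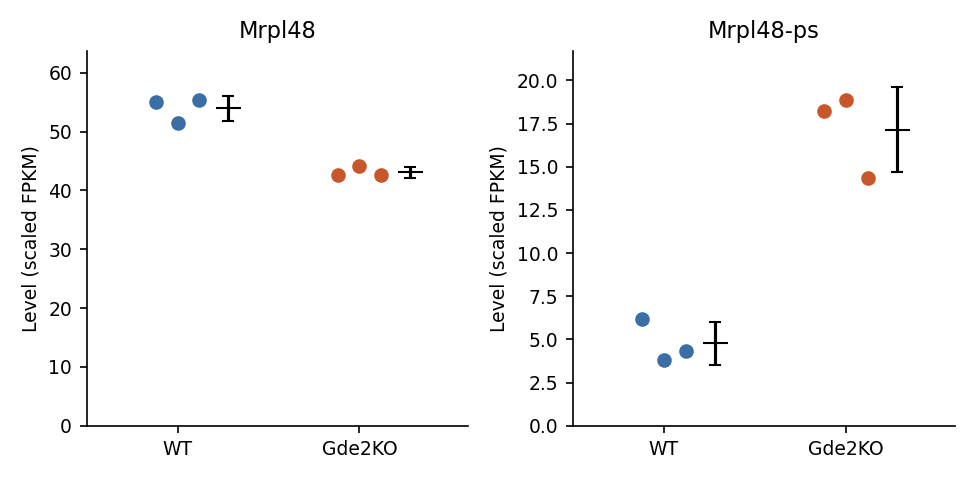
Level of Mrpl48 (left) and Mrpl48-ps (right) in each library, in scaled FPKM on axes that start at 0, with 1 point per library and bars for the mean ± SD of 3 libraries. The Gde2KO points lie at 42.5 to 44.2 FPKM for Mrpl48, below the WT points, and at 14.3 to 18.9 FPKM for Mrpl48-ps, above the WT points.

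The chromosome 7 gene was assembled with the same coding structure in both genotypes. In every library 1 main transcript carried the 6 inner coding exons with exactly their annotated ends. The authors' own FPKM for that transcript, with their confidence bounds, was 57.0 (53.7 to 60.4), 52.5 (49.3 to 55.6) and 55.4 (51.9 to 58.8) for the WT libraries and, for the Gde2KO libraries, 42.1 (39.4 to 44.8), 43.9 (41.1 to 46.7) and 45.1 (43.0 to 47.2). These bounds, which cover the estimate within a library and not the spread between libraries, did not overlap between any WT and any Gde2KO library. The authors' fragment coverage per base of that transcript was 283, 281 and 262 for WT against 206, 233 and 266 for Gde2KO, so that on coverage, which is not scaled for depth, Gde2KO replicate 3 lay within the WT range. That library had the highest relative depth, 1.137. Besides the main transcript, a single-exon piece within the gene was assembled in WT replicate 2 at 0.647 FPKM and in Gde2KO replicate 1 at 1.49 FPKM.

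The chromosome 4 copy was assembled in pieces that began further upstream in Gde2KO than in WT, while their downstream ends overlapped between the genotypes. The part of coverage, given below, in where a piece began was not tested. In WT the assembled piece covered aligned bases 78 to 367 in replicate 1, 78 to 561 in replicate 2 and 76 to 558 in replicate 3. All 3 WT pieces thus began within 3 bases downstream of G75A, the first base of coding exon 3, and none reached the bases of coding exons 1 and 2. In Gde2KO the piece covered bases 14 to 561 in replicate 1 and 1 to 561 in replicate 2, where it ran on for another 34 bases upstream of the annotated pseudogene. Gde2KO replicate 3 had 2 transcripts, of which 1 covered bases 22 to 502. The other covered bases 1 to 502 with a gap and ran on for 21 bases upstream. No library assembled the bases of coding exon 8, where 2 differences lie. Base 561 is the last of coding exon 7.

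The gap in Gde2KO replicate 3 was 53 bases long, chr4:88599737-88599789, and was exactly the stretch that corresponds to coding exon 2, the capitals of the first pair of sequences above. That stretch begins with GT and ends with AG, the letters usually found at the ends of an intron. Of the 10 annotated transcripts of Mrpl48, 1 (ENSMUST00000152876.2) joins coding exon 1 to coding exon 3 on chromosome 7. No library's chromosome 7 assembly left that exon out. The gapped transcript stood at 13.3 FPKM with bounds of 11.2 to 15.3, and its ungapped partner at 4.34 FPKM with bounds of 3.0 to 5.68.

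The levels over single exons followed from these pieces, since a transcript carries a single FPKM, and are no separate measurement. Over the stretch of coding exon 2 the pseudogene was listed at 0 in all 3 WT libraries and at 18.2, 18.9 and 4.33 FPKM in the Gde2KO libraries. Over coding exon 4, which every library assembled in full, the WT libraries held 11.7, 4.31 and 4.93 FPKM and the Gde2KO libraries 18.2, 18.9 and 17.6. The groups did not overlap there, but WT replicate 1 lay closer to the Gde2KO libraries than the other WT libraries did. An exact 0 in an assembly can be a failed assembly as well as a lack of reads, so no fold is given for coding exon 2.

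**Figure D2:**
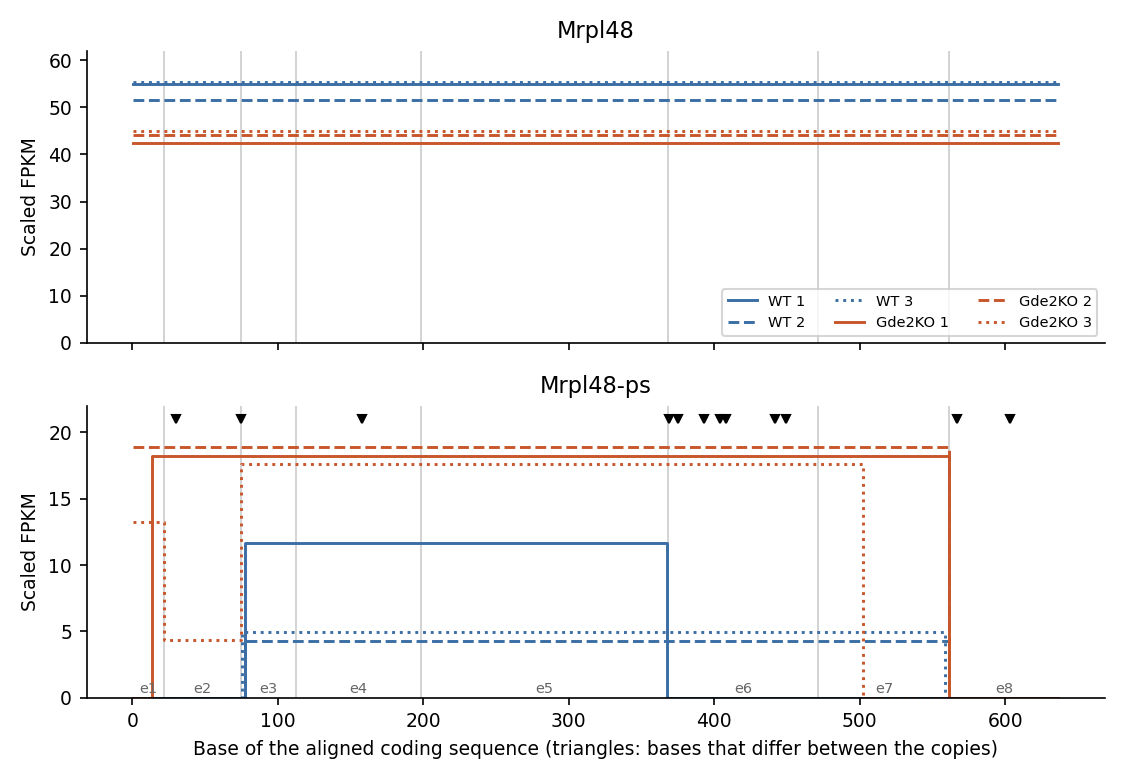
Scaled FPKM along the 636 aligned coding bases of Mrpl48 and of Mrpl48-ps, with 1 line per library, vertical lines at the exon boundaries of Mrpl48 and triangles at the 12 differing bases; lines are flat because a transcript carries a single FPKM. Mrpl48 is covered from end to end in every library, whereas the WT pieces of Mrpl48-ps begin at base 76 or 78 and the Gde2KO pieces begin at base 1, 14 or 22.

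WT replicate 1 set the widest spread of the pseudogene. Its piece was 290 bases long and stood at 12.1 FPKM in the authors' values (bounds 9.25 to 15.0), against 4.39 (3.35 to 5.42) over 484 bases and 4.93 (3.77 to 6.08) over 483 bases in the other WT libraries. The authors' coverage per base over these pieces was 58.0, 21.9 and 22.7. In Gde2KO replicates 1 and 2 it was 87.3 and 98.8 over 548 and 595 bases, and the values there were 18.0 (15.9 to 20.1) and 18.7 (16.8 to 20.7) FPKM. The lower bound of both was above the upper bound of WT replicate 1. In Gde2KO replicate 3 the level was divided between 2 transcripts, which together came to 17.6 FPKM and a coverage of 103 per base. Bounds are given for each part only, not for this sum. The bounds of the gapped transcript overlapped those of WT replicate 1, and the bounds of the ungapped one overlapped those of WT replicates 2 and 3. The WT piece of 290 bases spans 1 of the 12 differences and the other WT pieces span 8, while the longest Gde2KO pieces span 10.

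Added together, the copies reached about the same level in both genotypes. Over all 636 aligned bases, the sum of Mrpl48 and Mrpl48-ps came to 60.3, 54.9 and 59.2 FPKM across the WT libraries and to 58.2, 60.9 and 57.7 across the Gde2KO libraries, so that the groups overlapped. The WT mean was 58.1 ± 2.86 and the Gde2KO mean 58.9 ± 1.71 (SD, n = 3 each), a log2 difference of 0.02. Over the same bases the mean of Gde2KO minus that of WT was -10.05 FPKM for Mrpl48 and 10.9 FPKM for Mrpl48-ps. The pseudogene made up 8.83%, 5.98% and 6.33% of the sum in WT and 26.9%, 27.4% and 21.9% in Gde2KO. Within the 290 bases assembled in both copies in all libraries (78 to 367), its share was 17.5%, 7.71% and 8.17% in WT and 30.0%, 29.9% and 28.1% in Gde2KO. The sum there was 61.0 ± 5.40 FPKM in WT and 62.2 ± 1.26 in Gde2KO. The sum was computed after the opposite differences were known, and it is a description. The deposited assemblies hold no reads or base calls, so which copy or allele a fragment came from was not tested.

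**Figure D3:**
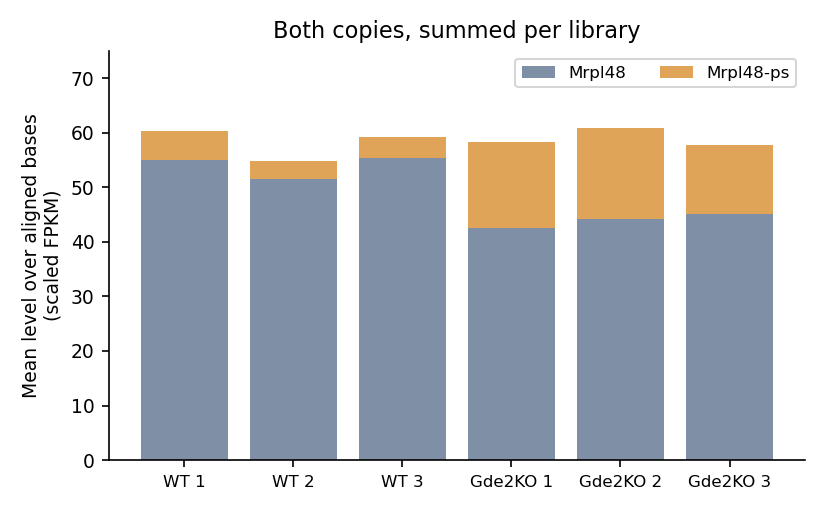
Stacked bars of the scaled FPKM of Mrpl48 and Mrpl48-ps over the 636 aligned coding bases, 1 bar per library, on an axis that starts at 0. The bars reach 54.9 to 60.3 FPKM in WT and 57.7 to 60.9 in Gde2KO, with a larger pseudogene part in each Gde2KO bar.

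The surroundings of the pseudogene held no other assembled transcript. Within 100 kb on each side, 14 other genes are annotated, 10 of them interferon genes of the Ifna and Ifnb families, and the transcripts over Mrpl48-ps were the only ones assembled there in any of the 6 libraries. The nearest tested genes on chromosome 4 showed no difference that passed the test. Klhl9, an adaptor of a ubiquitin ligase 118 kb away, had a fold of 1.01 (95% interval 0.924 to 1.11), and Focad, 188 kb away, had a fold of 1.06 (0.866 to 1.30). Gm26566 had a fold of 1.01, Mllt3 of 0.927, Mtap, an enzyme of methionine salvage, of 0.990, and Slc24a2 of 0.986.

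Around Mrpl48 on chromosome 7, none of the nearest tested genes passed the test either. Rab6a, a GTPase of Golgi transport, overlaps the 5' end of Mrpl48 on the opposite strand. The WT libraries held it at 48.4, 96.9 and 53.5 FPKM and the Gde2KO libraries at 46.7, 118 and 107, and its fold of 1.33 had a 95% interval of 0.611 to 2.88. Reads from the overlapping ends of these genes cannot be told apart where an assembly has no strand, but all transcripts counted for Mrpl48 carried one. Coa4, a factor for assembly of cytochrome c oxidase 5.38 kb away, was listed at 0, 3.98 and 2.18 FPKM for WT, whereas the Gde2KO libraries held 7.51, 10.9 and 9.21. The groups of Coa4 did not overlap, but with an adjusted p of 0.882 in limma it did not pass. Gm35082, a long noncoding RNA gene 66.8 kb away, was listed at 0 in all 3 WT libraries and was at 2.29, 2.77 and 7.03 FPKM in Gde2KO, with an adjusted p of 0.0535 in limma. It entered the comparison through the Gde2KO libraries alone and had no spread among the WT libraries, so nothing is read from that p. The mitochondrial carrier genes Ucp2 and Ucp3 had folds of 1.03 and 1.21 (0.926 to 1.58 for Ucp3), Plekhb1 of 1.05 and Fam168a of 1.01 (0.912 to 1.13).

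Together with Mrpl48, 81 genes for proteins of the mitochondrial ribosome could be tested. Ordered by mean level per length in WT, it was rank 5 of 81. Mrpl52 at 58.6 ± 19.7 FPKM ranked just above it and Mrps18a at 49.01 ± 3.25 just below, against 53.9 ± 2.17 for Mrpl48, and the WT libraries of either overlapped those of Mrpl48 in range. By log2 difference Mrpl48 was 6th lowest of the 81, and it was the only one of them in which all Gde2KO libraries lay below all WT libraries, which is the pattern it was chosen for.

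None of the other 80 tested genes passed the test. Mrpl53 had too little signal to be tested. Among the 80, 37 had a higher and 43 a lower mean in Gde2KO, and the median log2 difference was -0.01, against 0.00 over all genes. At an unadjusted p under 0.05 in limma there were 3, all higher, where 3.91% of all genes had such a p. The groups did not overlap in 4, again all higher (Mrpl1, Mrpl13, Mrps6 and Mrps23), beside 5.06% of all genes. The summed level of the list ran from 1800 to 1898 FPKM per library.

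The 3 other genes listed here for the central protuberance, none of which passed the test, had folds close to 1. Mrpl38 was at 30.2 FPKM in WT and 28.8 in Gde2KO, a fold of 0.951 with a 95% interval of 0.836 to 1.08. Mrpl46 had a fold of 0.980 (0.861 to 1.12) and Mrpl40 a fold of 0.990 (0.802 to 1.22). Each interval holds 1. Whether these folds differ from that of Mrpl48 was not tested.

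In the large subunit the smallest p-values belonged to Mrpl1 (2.63 to 3.37 FPKM, fold 1.26) and Mrpl13 (35.0 to 38.9 FPKM, fold 1.11) among the higher genes and to Gadd45gip1 (fold 0.822) and Mrpl3 (fold 0.876) among the lower. In the small subunit they belonged to Mrps6 (24.2 to 30.8 FPKM, fold 1.27), Mrps23 (24.7 to 27.1 FPKM, fold 1.10), Mrps27 (fold 0.847) and Chchd1 (fold 0.626). Each of these 8 genes had an adjusted p of 0.882 in limma. Among 30 tested genes for mitochondrial translation and ribosome assembly factors, none passed, 18 were higher and 12 lower, and the median log2 difference was 0.05. Malsu1, a factor that keeps the large subunit from joining the small one too early, had a fold of 1.30, and the rRNA methyltransferase gene Mrm2 had a fold of 1.16. Mtg2, a GTPase of ribosome assembly, had a fold of 0.775. The rRNA methyltransferase gene Mrm3 was held at 8.85, 7.17 and 3.60 FPKM by the WT libraries and at 6.17, 0 and 0 by the Gde2KO libraries. The adjusted p was 0.882 in limma for each of these factors too.

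**Figure D4:**
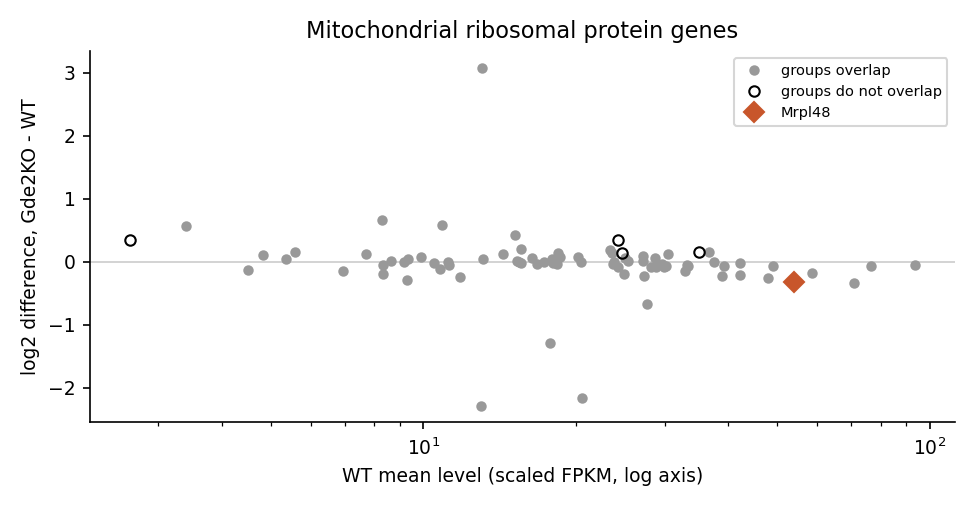
Log2 difference of Gde2KO from WT against the WT mean level in FPKM (log axis) for the 81 tested genes of the mitochondrial ribosome, 1 point per gene, with open circles for the 4 genes whose groups do not overlap and a diamond for Mrpl48, whose groups do not overlap either. The diamond lies at -0.32 and a WT mean of 53.9 FPKM, while the open circles all lie above 0.

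The pair was set beside other processed pseudogenes named after a parent gene. Among 650 such pseudogenes, 36 had both copies tested, and in 22 of the 36 pairs the log2 differences of the copies had opposite signs. The pair of Mrpl48 was the 1 pair in which neither copy had overlapping groups, which is the pattern it was chosen for. The pairs with the highest pseudogene level differed from it. Atp6v0c-ps2 was at 131 FPKM in WT and 163 in Gde2KO (log2 difference 0.29, no overlap) beside 0.01 for its parent Atp6v0c, a subunit of the vacuolar proton pump. Rpl36a-ps2 and its parent Rpl36a, a cytosolic ribosomal protein gene, had log2 differences of -0.03 and 0.07. Rpl14-ps1 had -0.07, while its parent Rpl14 had 0.37, without overlap.

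Among all 209 processed pseudogenes tested, the groups did not overlap in 8 that were higher (3.83%) and 7 that were lower (3.35%), and the median log2 difference was 0.02. A log2 difference as high as that of Mrpl48-ps was found in 25 of them, with Mrpl48-ps included. No more than 8 of these 25 had groups that did not overlap. Of all 12894 genes, 107 had a higher difference than Mrpl48-ps. Reads of near-identical copies may have been divided between a pseudogene and its parent by the aligner, and the rule by which the authors' alignment placed such reads was not given in the sources used here. Levels of either member of a pair are uncertain to that extent.

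**Figure D5:**
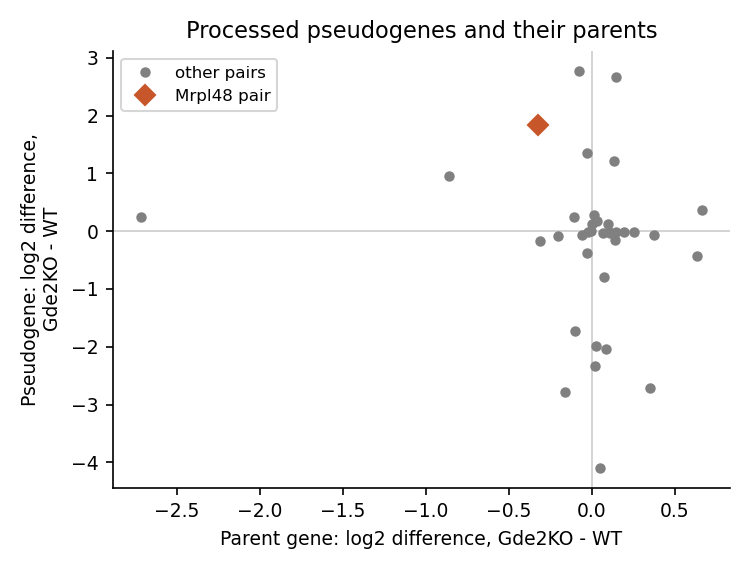
Log2 difference of Gde2KO from WT for the pseudogene against that of its parent gene in 36 pairs, 1 point per pair, with lines at 0. The Mrpl48 pair lies at -0.32 for the parent and 1.84 for the pseudogene.

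The genes with the pattern across the 6 libraries most like that of Mrpl48, by the root mean square difference of centred log2 levels, were H2-Q4 (0.0294), 9430015G10Rik (0.0350), Rgl3 (0.0379), Mettl15 (0.0444) and Aff2 (0.0466). Their log2 differences ran from -0.37 for 9430015G10Rik to -0.28 for Mettl15, and none passed the test. Most like Mrpl48-ps were Olfml1 (0.364), Folh1 (0.395), Ndufaf5 (0.410), Vmn1r58 (0.423) and Nell2 (0.473), with differences larger than those of the genes named for Mrpl48. Olfml1, Folh1 and Vmn1r58 lie on chromosome 7, as Gdpd5 does, and Ndufaf5 and Nell2 on chromosomes 2 and 15. The 3 on chromosome 7 start at bases 107567446, 86718977 and 5401681, against 99381414 for Gdpd5. The share of all tested genes that lie on chromosome 7 is not given here, so nothing is read from these positions. Of these 5, Nell2, a secreted protein of neurons, passed the test, at 27.0 FPKM in WT and 55.3 in Gde2KO (fold 2.05, adjusted p = 0.00673 in limma). These genes were picked for their likeness over the same libraries, so their own differences add no support to those of the pair.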

How the data were processed

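Per the labels, poly-A RNA of 3 WT and 3 Gde2KO samples was sequenced. The submitters' processing notes list FastQC, TopHat2 2.1.1, Cufflinks 2.2.1, Cuffdiff 2.2.1 and the build mm10. How reads matching several places were handled was not given in the sources used here. The deposited files hold, for each library, the authors' assembled transcripts with FPKM, confidence bounds and coverage.

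Transcripts of at least 200 bases were matched to GENCODE vM21 genes. A gene's level was the FPKM summed at each exonic base that no other gene of its strand shares and that at least 3 libraries assembled, averaged over those bases and scaled by median-of-ratios factors of 0.989 to 1.0376. Genes with 200 such bases and a mean FPKM of 1 were tested by limma 3.58.1 (R 4.3.3) on the log2 of FPKM plus 0.1, with trend and robust moderation, two-sided, with Benjamini-Hochberg adjustment at 0.05. The script was tested on simulated data. The members and lists were chosen with earlier results of these data known. Genes were named by rule: both members, Gdpd5, the listed central protuberance genes, per list the genes called and the 2 of smallest p in each direction, the 3 nearest tested genes on each side, the 5 most alike, the 3 pairs with the highest pseudogene level and the tissue markers. Some genes that the rule names are left out of the text.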

Additional observations from a re-analysis of the deposited data

How the results depend on the processing

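Mrpl48 stayed lower and Mrpl48-ps higher in Gde2KO under all 19 alternatives run for each, with log2 differences of -0.36 to -0.26 and 1.52 to 2.04. With the plain sum of transcripts they were -0.26 and 1.54, and over bases assembled in all 6 libraries, an alternative added after seeing the data, Mrpl48-ps was at 1.52. Leaving out 1 library gave -0.36 to -0.30 for Mrpl48, 1.70 to 2.04 for Mrpl48-ps and -0.02 to 0.05 for the sum of both copies, a measure also added after seeing the data. The number of genes passing the test was 15, but 4 with a pseudocount of 0.01, 1 with a minimum mean FPKM of 5 and 4 over bases assembled in all 6 libraries. Without 1 library it ran from 10 to 26, with 26 without WT replicate 2, 24 without Gde2KO replicate 2 and 25 without Gde2KO replicate 3. With the replicate number as a block it was 2. Whether the numbers pair the samples is not given in the labels. The deviations of same-numbered libraries correlated at 0.0107, 0.0357 and -0.0671 over genes, and those of differently numbered libraries at -0.0631 to 0.0508. The block left the log2 differences of the members at -0.32 and 1.84. No mitochondrial ribosomal protein gene passed under any of 20 alternatives in limma, with 1 to 5 at an unadjusted p under 0.05. Their median log2 difference of -0.00797 was -0.0419 without further scaling, 0.0273 with the plain sum, 0.00611 with fragments per gene, 0.0015 over bases assembled in at least 1 library and 0.0245 over bases assembled in all 6 libraries. Leaving out 1 library gave -0.0331 to 0.0198, above 0 without WT replicate 1, Gde2KO replicate 1 or Gde2KO replicate 3, so the median has no stable sign. The cause of these shifts was not tested. The deposited values give coverage per base but no read counts, so no counting interval is given.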
